A study of Apis mellifera with 6 samples.

Results

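The most abundant transcripts of worker bee antennae are described here as the 100 genes with the highest base mean in the antennal RNA-seq of the honeybee, Apis mellifera. The base mean is the authors' mean of the normalized read counts of a gene over all 6 libraries, both genotypes together. The members were chosen by this value from 9361 listed genes with a complete line, after gene families of chemosensory proteins, heat shock proteins, hexamerins, cytochrome P450 enzymes, glutathione S-transferases, some immune peptides and cuticle proteins had been left out, which took away 54 genes. Because the base mean chose the members, their levels are given as a description without a test.

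The study asked what the gene doublesex (dsx) does in worker bees, which are females. It sequenced antennal RNA of 3 pools of dsx stop/stop workers and of 3 pools of wt workers, with 5 bees in each pool. The dsx stop/stop worker bees carried stop mutations in both copies of dsx, which CRISPR-Cas9 had induced independently in each bee. Both groups were workers, and the age of the bees used for RNA is not given in the sources used here. The libraries were made from RNA captured by its polyA tail and read as single ends of 150 bp. The only values used were the base means, so no value per genotype or per pool was at hand, no spread between pools could be computed, and dsx stop/stop workers were not tested against wt workers. After a few lines, the listed genes run in alphabetical order and end at LOC724262. Genes with later names were not analysed here, with exceptions such as LOC724488 and LOC724274, which the rule left out of the members. The members are the most abundant of the listed genes that the rule kept.

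The antenna is the main organ of smell, taste and touch of the worker bee. Its sensilla hold sensory neurons and supporting cells, and the supporting cells secrete proteins into the fluid around the dendrites of the neurons. Muscle, glia, tracheae, epidermis and haemolymph are also part of the organ, and a sample of whole antennae mixes the RNA of all of them. A large share of the mRNA in most animal tissues comes from a small number of genes for protein synthesis, energy supply, the cytoskeleton and secreted proteins. In such bulk samples, fewer cells of a type and less RNA per cell cannot be told apart.

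The smallest base means gave 6 size factors, which are the numbers that DESeq2 divides the counts of a library by, and these were 0.202, 0.446, 1.10, 2.01, 2.13 and 2.36. The highest was 11.7 times the lowest, and they were not assigned to a genotype. Size factors do not give the number of reads, and the range of mapped reads that the methods state is narrower, a difference that was not resolved here. The library with the lowest size factor gave 52.2% of the counting variance of a base mean. The counting error that follows from these factors was between 0.0777% and 0.494% of the base mean for the members. This error covers counting only and not the spread between pools. The methods speak of a normalization by TPM, which divides by transcript length, while the smallest base means were the same in different genes, as counts divided by a size factor are. The counting errors and the limits per kb given here hold only if the base means are such counts. Base means of this kind rise with the length of a transcript as well as with the number of its copies. Transcript lengths were not used here, so the order of the members is an order of read counts. The span of a gene in the genome, introns included, is an upper limit of the length of its transcript, and the base mean divided by the span is a lower limit of the counts per kb.

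The tissue label was set against marker genes. CSP1 and CSP3, chemosensory proteins that the rule left out, had base means of 58480 and 48898 and ranked 11 and 16 of all listed genes. Dll, the Distal-less factor of appendages, had 5605. Marker genes of other tissues differed in read count. The 4 hexamerins, storage proteins of the fat body, had 32.6 (Hex70a), 19.2 (HEX70b), 1.22 (Hex70c) and 27.3 (Hex110). A4, taken as an apolipophorin on the list for fat body and haemolymph, had 285, close to the median of all listed genes. The blue-sensitive opsin Blop had 35.4. Of the alpha-glucosidase genes on the list for head glands, AGLU2 had 1382 and Hbg3 had 1970, above 85.4% and 90.4% of the listed genes, and Hbg2 had 5.94. GlnS, on the list for glia, is itself a member. What these tissues gave to the counts of the members was not tested. The odorant coreceptor, vitellogenin, the major royal jelly proteins, amylase and the glial factor repo were not analysed here. Odorant-binding proteins, other odorant receptors, ionotropic receptors and sensory neuron membrane protein 1 were also not looked at as markers. The same holds for apolipophorins other than A4 and for the muscle genes of myosin, troponin and tropomyosin. None of the 9 members with a symbol is one of these genes. Whether any of these are among the members known by locus number was not examined. Dsx, the gene carrying the stop mutations, is not a member. Its base mean was 1278, above that of 84.0% of the listed genes.

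The 100 members were 1.07% of the listed genes and held 29.7% of the summed base means, 2934867 of 9869682. Their base means lay between 10825 and 436377, with a median of 17915 and quartiles of 12904 and 29310. The median of all listed genes was 276, so that the last member had 39.3 times the counts of the median gene. Most members stood close to the lower end. Of the 100 members, 3 had a base mean above 100000, 7 lay between 50000 and 100000, 36 between 20000 and 50000 and 54 between 10000 and 20000. The first 10 members held 11.5% of the sum over all listed genes, the first 20 held 15.6% and the first 50 held 22.9%. In all, 335 listed genes made up 50% of the sum.

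**Figure D1:**
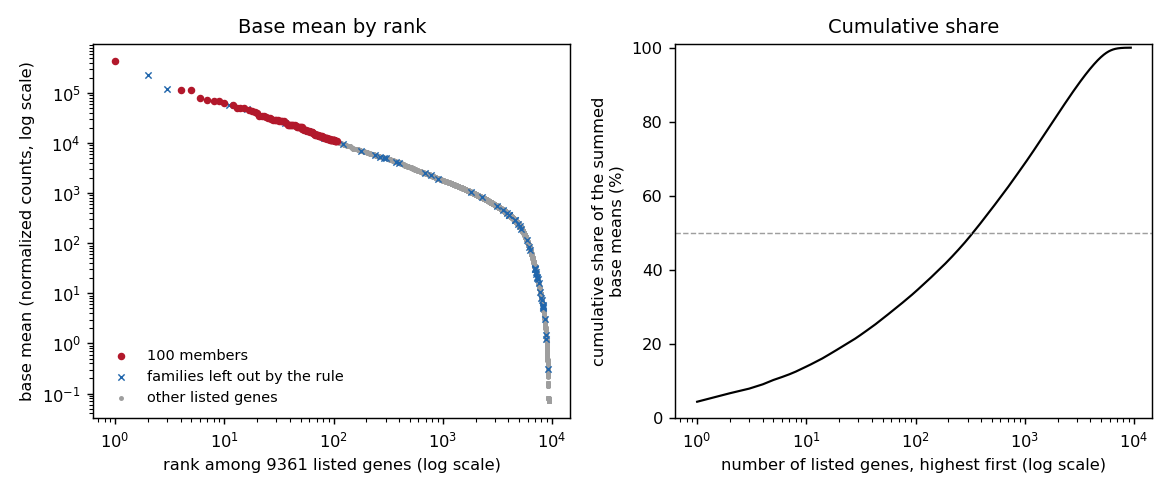
Left, base mean in normalized counts against rank among the 9361 listed genes, both on log scales, with the 100 members in red, the families left out by the rule as blue crosses and other genes in grey. Right, the share of the summed base means, in percent, held by the listed genes counted from the highest, which passed 50% (dashed) at 335 genes.

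The step from the members to the genes just below them was small. The last members were LOC410829 at 10896 and LOC409963 at 10825, and the first genes outside were Gtpx1 at 10740 and LOC409533 at 10721. The gap at this boundary was 85.0 counts, 0.785% of the last member and 1.13 times the counting error of the difference. The counting error of a difference joins the counting errors of both genes. The next 100 genes had base means from 6276 to 10740 and held 8.05% of the sum. The order within the members was also not fixed by these counts. Of 99 pairs of members that follow each other in the order, 54 were less than 2 counting errors of their difference apart. Among the first 20 members, 3 pairs were. LOC408421 and LOC113218660, the second and the third member, differed by 0.127 counting errors of their difference.

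A single gene stood far above the other members. LOC409173, a protein-coding gene on LG4 from 5944397 to 5947076 (Amel_HAv3.1), had a base mean of 436377, which was 4.42% of the sum over all listed genes and 3.79 times the second member. Its span is 2.68 kb with 1 annotated transcript, so that its base mean per kb was at least 162827. CYP6AQ1 at 227119 and Hsc70-4 at 122435, of families left out by the rule, came next among all listed genes. Among the members, the second in read count was LOC408421 on LG13 at 115190. The third member was LOC113218660, a long noncoding RNA (lncRNA) on LG3, at 115159. LOC552366 on LG1 followed with 79472, LOC552418 on LG2 with 72213, LOC100576540 on LG1 with 70505, LOC409602 on LG9 with 70122 and LOC409675 on LG6 with 64583. The ninth member was LOC113219383, a ribosomal RNA gene on an unplaced sequence, at 57065. The tenth was LOC408695 on LG2 at 50713. The reference table used here gives these genes by locus number only, and no role is given to them. The next 10 members had base means from 32746 (LOC409852 on LG1) to 49788 (LOC102656354 on LG15). Between these 2 values were LOC413056 on LG1 at 49769, LOC408453 on LG14 at 44813, LOC411083 on LG5 at 43827, the lncRNA LOC102653599 on LG2 at 41036, the noncoding RNA Ancr-1 on LG5 at 39392, LOC410492 on LG14 at 35362, LOC503505 on LG1 at 34593 and EF1a-F2 on LG5 at 34280.

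The lower limit of the counts per kb put short genes forward. LOC409173 had by far the highest limit, and LOC552366 followed with at least 49057 counts per kb over a span of 1.62 kb. LOC102656354 had at least 31098, LOC408695 at least 30791, LOC408453 at least 26145, LOC100576540 at least 24887, LOC408421 at least 22450, LOC410492 at least 20104 and LOC409602 at least 16736. The tenth was LOC724114 on LG2 with at least 16327, a gene that ranked 38 among the members by base mean. A gene with long introns can have a high count per kb of transcript and still a low limit here, as the span of LOC411083 is 118.5 kb.

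Of the 100 members, 9 have a gene symbol, and these 9 held 6.54% of the counts of the members. Genes with a symbol were members more often than genes known by a locus number, with 7.32% of 123 against 0.991% of 9184. Most of the 9 serve basic tasks of the cell. They are described here by role, each beside the listed genes of a like role that have a symbol, which were picked after the values were seen.

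Among the members with a symbol, protein synthesis was represented by EF1a-F2, elongation factor 1-alpha, which delivers aminoacyl-tRNA to the ribosome. It lies on LG5 from 12770336 to 12774960 and had a base mean of 34280 with a counting error of 95.1. The other listed gene for this factor, Ef-1a-f1 on LG12, had 3981, so that EF1a-F2 had 8.61 times its read count. The initiation factor genes with a symbol were also below the members, Eif4g at 6419, Eif3h at 669 and the mitochondrial IF-2mt at 826.

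Among the 9 members with a symbol, energy supply was represented by 3 genes. Argk, arginine kinase, buffers ATP in insect muscle and neurons through phosphoarginine. It lies on LG15 from 2505071 to 2528532 and had a base mean of 29280. Ant, the translocase that exchanges ADP and ATP across the inner mitochondrial membrane, lies on LG7 and had 17844. ATP5G2, the c subunit of mitochondrial ATP synthase, lies on LG8 and had 15865. Other listed genes of energy supply with a symbol were lower in read count. Cytochrome c (CytC) had 3477, glycerol-3-phosphate dehydrogenase (Gpdh) 1879 and the cytochrome c oxidase subunits Cox6b1 and Cox6c 1535 and 850.

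The members also held an enzyme against peroxide and an enzyme of glutamate handling. Cat, catalase, breaks down hydrogen peroxide and had a base mean of 16858 on LG6. Gtpx1, a gene of glutathione peroxidase type, was the first gene outside the members at 10740. GlnS, glutamine synthetase, makes glutamine from glutamate and ammonia and is a glial enzyme in nervous tissue, although other cells use it too. It lies on LG6 from 16823113 to 16843347 and had 14283, 51.3 times the read count of the glutamate transporter gene Eaat-2 at 279.

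E75, a nuclear receptor of the response to the steroid hormone ecdysone, was the only listed transcription factor with a symbol among the members. It lies on LG11 from 10210607 to 10372038 and had a base mean of 11351. The listed genes of the same response compared here were far lower in read count. Genes known by locus number were not searched for this role. The ecdysone receptor Ecr had 636, the Ets-domain factor E74 had 420 and the broad-complex Br-c had 48.6, so that E75 had between 17.8 and 233 times their counts. Arp1, whose symbol stands for actin-related protein 1, had 12803 on LG7.

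**Figure D2:**
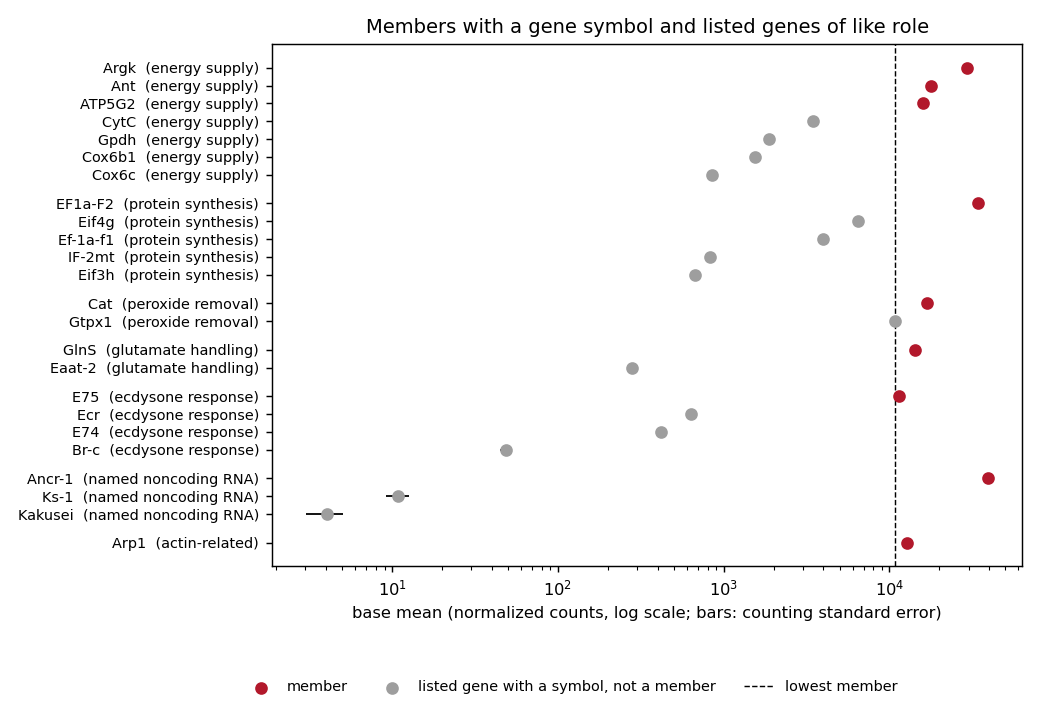
Base mean in normalized counts (log scale) of the 9 members with a symbol (red) and of listed genes of like role (grey), with bars for the counting standard error. The dashed line marks the lowest member at 10825. Ancr-1 had 39392, Ks-1 10.9 and Kakusei 4.06.

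Of the members, 94 were protein-coding, 5 were lncRNA and 1 was ribosomal RNA. Of all listed genes, 81.3% were protein-coding and 18.5% were lncRNA. The lncRNA genes were thus rarer among the members, but those few held most of the lncRNA counts. Long noncoding RNAs as a class were low, with a median base mean of 10.4, and 853 of 1735 (49.2%) were under 10. The 5 lncRNA members held 234572 of the 345775 counts of all listed lncRNA genes, which is 67.8%. Without the highest lncRNA it was 51.8%. The 94 protein-coding members held 28.0% of the counts of all listed protein-coding genes. Such shares follow in part from the choice of the members by base mean. The next lncRNA, LOC100577216 on LG3, had 3800 and was below the last member, and the next 100 genes held 0 lncRNA genes.

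The highest lncRNA was LOC113218660 on LG3 from 2694009 to 2706790, with a base mean of 115159 and a counting error of 174. LOC102653599 on LG2 from 11829037 to 11837833 had 41036. Ancr-1, a noncoding RNA first described in the honeybee, lies on LG5 from 13480118 to 13487797 and had 39392. The other lncRNA members were LOC113219165 on LG12 from 714634 to 716877 at 27161 and LOC102656130 on LG2 from 15185690 to 15186784 at 11824. The 5 spread over a factor of 9.74. The other noncoding RNAs of bees with a symbol were low among all listed genes. Ks-1, known from Kenyon cells of the brain, had 10.9 and Kakusei, known as a transcript induced by neural activity, had 4.06. The median of the listed lncRNA genes was 10.4, close to Ks-1.

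The ribosomal RNA member, LOC113219383, spans 4029 bp and held 66.3% of the counts of the 9 listed ribosomal RNA genes. A base mean of 6681 was listed for 4 of these genes alike and one of 1130 for another pair alike, and the last pair had 32.2 and 19.4. Reads of near-identical copies cannot be told apart, so that the values of single ribosomal RNA genes are uncertain. Ribosomal RNA has no polyA tail in its usual form, and the libraries were captured by polyA. What share of the ribosomal RNA passed the capture was not tested.

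**Figure D3:**
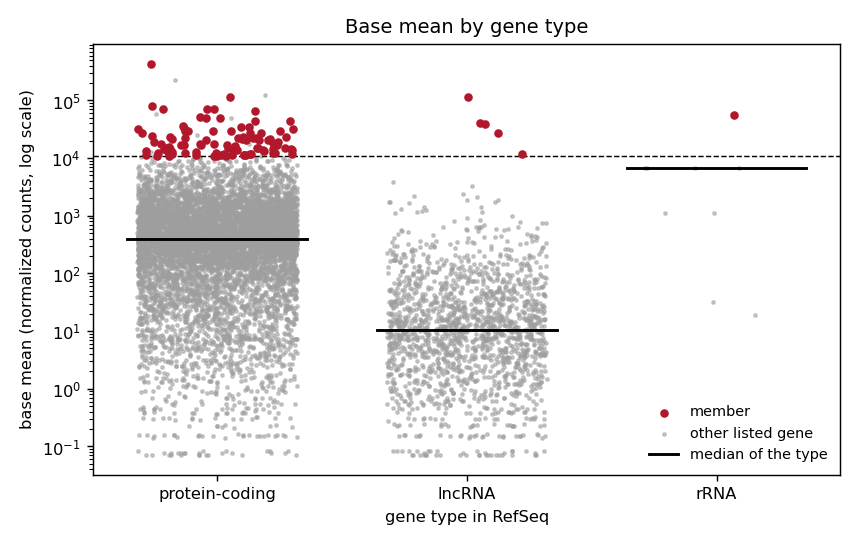
Base mean in normalized counts (log scale) of each listed gene by RefSeq gene type, with members in red, other genes in grey and the median of each type as a bar, 401 for protein-coding and 10.4 for lncRNA genes. The 5 lncRNA members stand apart from the other lncRNA genes, the highest of which had 3800. The dashed line marks the lowest member, and genes of families left out by the rule lie above it in grey.

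Gene structure was not used to choose the members. The median span was 5.14 kb in the members, 8.88 kb in the next 100 genes and 3.87 kb in all listed genes. Of the members, 29 (29%) were shorter than 3 kb, against 39.4% of all listed genes, and 7 (7%) were longer than 100 kb, against 3.37%. The shortest was LOC408308 on LG11 with 1.09 kb and the longest LOC551259 on LG7 with 206 kb. E75 was among the long ones with 161 kb. The median number of annotated transcripts was 2 in the members and 1 in all listed genes, and 45% of the members had 1 transcript, against 54.3%. LOC408685 on LG2 had the most, with 38. In the 94 protein-coding members, base mean and span had a Spearman rho of -0.07, and in all 7608 listed protein-coding genes of 0.23. This is a description across genes, which are not independent replicates and share the same 6 libraries. The members were chosen by base mean, which narrows its range in them, so the rho values do not compare like with like.

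**Figure D4:**
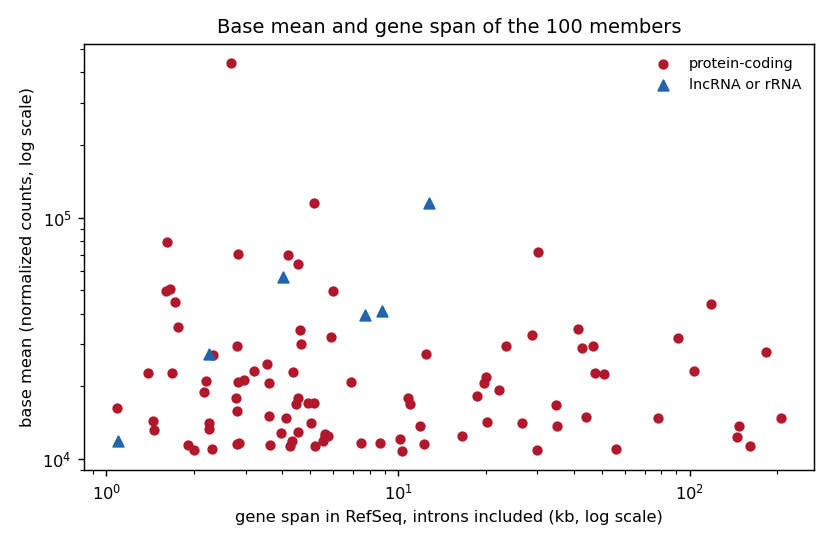
Base mean in normalized counts against gene span in kb, introns included, for the 100 members, both on log scales, with protein-coding members as red circles and noncoding members as blue triangles. LOC409173 stands alone at 436377 with a span of 2.68 kb, and spans reached from 1.09 to 206 kb at similar base means.

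The members were spread over the genome. All 16 linkage groups held members, from 3 on LG3 to 10 each on LG1 and LG2, and 1 member was unplaced. The share of the listed genes of a linkage group that were members lay between 0.471% on LG3 and 1.71% on LG4, with 1.07% over all. LG4 held 19.1% of the counts of the members, and 5.02% without LOC409173.

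Within 10 kb of another member lay 10 members in 5 pairs, against 4 of the next 100 genes near each other. No like share was computed for sets of 100 genes drawn from all listed genes. Whether members lie closer together than other listed genes was not tested. LOC408695 on LG2 lies 437 bp from LOC408696, with base means of 50713 and 14317. LOC724114 and LOC552277, also on LG2, lie 273 bp apart and had 22711 and 23120. LOC409602 and LOC412768 on LG9 overlap by 124 bp and had 70122 and 20683. LOC410454 on LG13 lies inside LOC408429, with 17122 and 13656. The last pair, LOC409051 and LOC552007 on LG4, lies 5596 bp apart and had 14792 and 11701. Members of a pair thus had like counts in some places and unlike counts in others.

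Of the 99 members on linkage groups, 10 (10.1%) lay wholly inside the span of another gene, against 15.6% of all listed genes, and 9 of 94 protein-coding members did so (9.57%), against 7.08% of listed protein-coding genes. Among the first 20 members, of which 19 were placed, 5 did (26.3%), a count looked at after the values were seen. The outer gene was listed for 9 of the 10, and each of the 9 members had a higher base mean than its outer gene, by 1.25 to 965 times with a median of 174. A member being above its outer gene follows in part from its choice as a high gene. LOC409173 lies inside LOC409172, which had a base mean of 1374, so that the member had 318 times its count. LOC408421 lies inside LOC410439 at 661, LOC100576540 inside LOC724238 at 73.1, LOC413056 inside LOC409749 at 327 and LOC410492 inside the lncRNA LOC107965483 at 42.5. LOC409171 and LOC107965199 lie inside the same gene, LOC412591, which had 880.

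**Figure D5:**
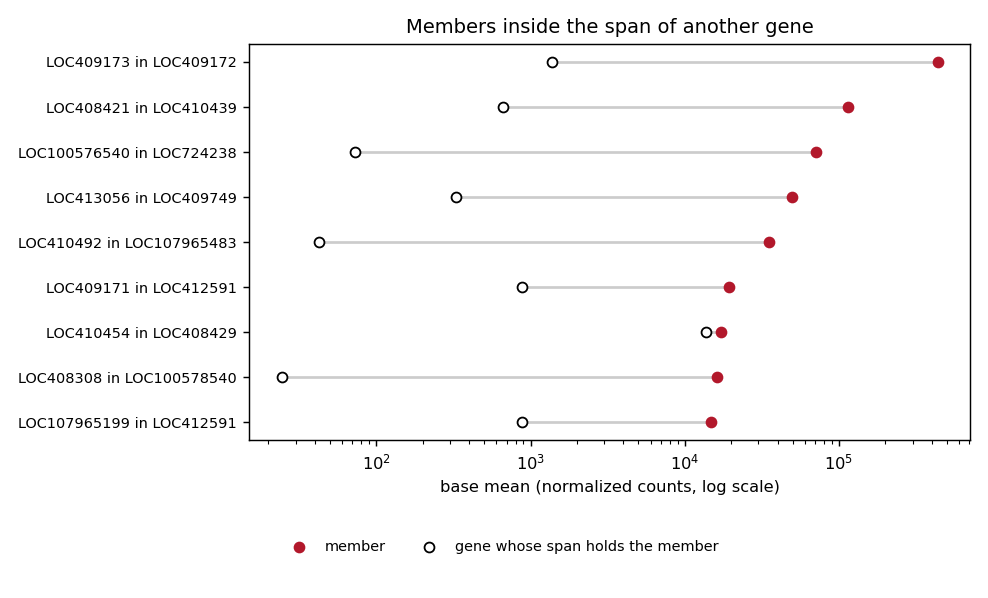
Base mean in normalized counts (log scale) of 9 members (red) and of the listed gene whose span holds each of them (open circles), joined by a line. The ratio was 965 for LOC100576540 and 1.25 for LOC410454.

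Overlapping genes can share reads in a count by transcript. In all, 43 of the 99 placed members (43.4%) overlapped another annotated gene, as did 43.7% of all listed genes. In 7 members the overlapping listed gene reached at least 10% of the base mean of the member. These were LOC412768, LOC408429, LOC410454, LOC409602, LOC408361, LOC551774 and LOC102653599, and their base means are uncertain if reads were shared. For the other members with a listed partner, it stayed under 10%. Overlap was taken over whole gene spans, introns included, and the strand of the genes was not used here. Sharing of reads was not tested.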

How the data were processed

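Antennal RNA of worker bees was measured in 6 libraries, 3 from pools of dsx stop/stop and 3 from pools of wt worker bees. The authors trimmed the reads, used kallisto to estimate counts per transcript of Amel_HAv3.1, and compared the genotypes with DESeq2. Versions of kallisto and DESeq2 are not given in the sources used here. The methods name a normalization by TPM, whereas the base means behave as counts divided by size factors and were treated as such. The authors deposited 1 table with 1 line per gene. Its base mean, in normalized counts pooled by the authors over all libraries, was the only value used. Its other 6 columns of values (log2 fold change, standard error, Wald statistic, p-value, adjusted p-value and -log10 values) hold the authors' own comparison and were not used. No test was therefore made.

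Decimal commas were read as points. Of 9362 lines, 9361 were complete. The incomplete line had a base mean of 99.9, far below the members. The members are the 100 lines with the highest base mean after 54 lines of the named families were left out, and 0 members shared a value with another line. Members, lists and the rule for named genes were chosen with earlier results of these data known. Named are the 20 highest members, the 10 highest per kb, the genes at the boundary, members near each other, marker genes and Dsx. Genes named beside these were chosen after their values were seen.

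Size factors were derived from values under 1 that 3 or more lines have in common (93 lines in all), taken as 1 read in 1 library. They were kept since there were 6 of them and their geometric mean was within 1% of 1. Of 20 data sets simulated with these same size factors, this reading gave an answer for 4, and 0 of these answers were wrong. Other size factors were not tried. The counting error treats normalized counts as Poisson counts divided by these factors. Gene types, positions and spans came from RefSeq (Amel_HAv3.1), which matched 9359 listed genes and all 100 members. Sequences, gene descriptions and transcript lengths were not used here. Python 3.11.15 with numpy 2.4.6, pandas 2.3.3, scipy 1.17.1 and matplotlib 3.10.9 was used.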

Additional observations from a re-analysis of the deposited data

How the results depend on the processing

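The share of the summed base means held by the members was 31.6% of the sum without the families left out, 26.5% without the highest member, 22.9% for the first 50 genes, 37.8% for the first 200 and 34.1% with no family left out. In that last set 93 of the 100 members were kept. Sets of 50 and 200 genes held these numbers of members by construction. With a limit of 20 kb, chosen after seeing the data like all other limits on distance and the settings of gene type and lncRNA, 20% of the members had another member near. Without the highest lncRNA, the lncRNA members held 51.8% of the lncRNA counts. The share of protein-coding members lay between 90% and 96.5%. The median span was 5.14 kb for the members, 4.64 kb for the first 50 and 6.55 kb for the first 200 genes. In all listed genes it was 3.87 kb. The ranking per kb of transcript, the groups by gene description and the measures of proteins, exons and promoters were not run, because they need annotation that was not used here. No paired analysis was possible because the values are pooled over all libraries. For the same reason no library was left out and no other normalization was tried. Counting error limits the order of the members, and the spread between pools is unknown.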

Other observations

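The families left out by the rule included genes as abundant as the members. Of 54 such genes, 7 had a base mean above the last member. CYP6AQ1, a cytochrome P450 gene, had 227119 and ranked 2 of all listed genes, and Hsc70-4, a heat shock cognate chaperone, had 122435 and ranked 3. CSP1 and CSP3 followed with 58480 and 48898, Cyp6as5 with 24796, the glutathione S-transferase GstD1 with 17617 and Hsp90 with 12893. Together the 54 genes held 5.79% of the summed base means.

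Some genes outside the members were chosen for mention after their values were seen. Jhe, juvenile hormone esterase, had a base mean of 8685 and ranked 139 of all listed genes. The silk genes Fibroin1, Fibroin2, Fibroin3 and Fibroin4 had 17.8, 8.13, 4.34 and 46.6.

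On LG14, 3 members lie on the same stretch of the chromosome, each farther than 10 kb from the next, and were chosen for mention after their positions were seen. LOC408452 from 5789174 to 5791327 had a base mean of 18985, LOC408453 from 5803486 to 5805199 had 44813 and LOC410492 from 5841564 to 5843322 had 35362.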
